A study of Mus musculus with 2 samples.

Results

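Hepatocyte growth factor (Hgf), its receptor (Met) and 7 genes whose transcription is driven by the kinase ERK were followed through the cells of EMT6 tumors. The 9 genes were taken by symbol out of the 55450 genes of the count matrices, and they were chosen on earlier results of these same libraries, in which some of them differed between the treatments. The differences between the treatments are therefore given as a description, with no test.

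HGF is a secreted ligand, made mainly by stromal cells in most tissues, and MET is the receptor tyrosine kinase that binds it. An active receptor recruits adaptors that switch on RAS, and the RAF, MEK and ERK kinases follow. ERK output includes the PEA3 transcription factors (Etv1, Etv4, Etv5), which carry the signal to target genes, and feedback inhibitors (Spry2, Spry4, Dusp6), which shut it down. Phlda1 is also induced by ERK signaling.

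EMT6 is a mouse mammary carcinoma line that was grown under the skin of BALB/c mice. All mice received a PRMT5 inhibitor, LLY-283, at 50 mg/kg in cycles of 3 days with and 4 days without dosing, and a PARP inhibitor, Olaparib, at 50 mg/kg, and the Combo group also received anti-PD-1 antibody (200 µg every 3 days). Each group was 1 single-cell library from 3 pooled tumors, so neither animals nor libraries were replicated, and no untreated tumor was analysed here. The 95% intervals below cover counting error only.

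Of 16115 cells with Olaparib + LLY-283 and 7542 with Combo, 13974 and 5672 were used after removal of poor cells and doublets. Cells were assigned to 9 classes from marker UMIs (unique molecular identifiers, each 1 counted transcript), and the classes are called "-like" because no annotation of cells was used. The tumor-like class, defined by keratin genes and Epcam, held 10099 and 2714 cells. In it Krt8 stood at 821 and 800 CPM (UMIs per 1e6 UMIs of the class), against 150 and 93.5 CPM in macrophage-like cells. The highest Krt8 in another class was 308 CPM in T/NK-like cells of Olaparib + LLY-283 and 200 CPM in neutrophil-like cells of Combo. In clusters found without the members, 8832 of the 12813 tumor-like cells lay in clusters named tumor and 261 of 417 cancer-associated fibroblast (CAF)-like cells in a fibroblast cluster. Of 104 dendritic cell (DC)-like and 82 osteoclast-like cells, 73 and 55 lay in the T/NK cluster and 0 in a cluster of their own name. Depth differed strongly, with a median of 8964 UMIs per tumor-like cell in Olaparib + LLY-283 and 47069 in Combo. The libraries shared 39 cell barcodes.

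The bases before the start of 4 members are shown, because Hgf and Etv1 were higher and Spry2 and Dusp6 lower in the tumor-like cells of Combo. RefSeq promoter sequences (GRCm38.p6) were taken for 6 of the 9 members. Etv4 and Phlda1 had no entry, and Spry4 was not looked up. Each run is the 250 bases before the start, 5′ to 3′. Hgf is chr5:16553245-16553494 on the plus strand, Etv1 is chr12:38779832-38780081 on the plus strand, Spry2 is chr14:105896820-105897069 on the minus strand and Dusp6 is chr10:99262981-99263230 on the plus strand. The Hgf, Spry2 and Dusp6 windows lie just outside the annotated gene, and the Etv1 window lies inside the gene but in no exon, 702 bases from the gene's annotated start. Capitals mark AGGAAG or CGGAAG, forms of the ETS motif that the PEA3 factors read, on either strand. The shorter run GGAA is not marked where it stands outside these forms, as in the Spry2 window.
Hgf: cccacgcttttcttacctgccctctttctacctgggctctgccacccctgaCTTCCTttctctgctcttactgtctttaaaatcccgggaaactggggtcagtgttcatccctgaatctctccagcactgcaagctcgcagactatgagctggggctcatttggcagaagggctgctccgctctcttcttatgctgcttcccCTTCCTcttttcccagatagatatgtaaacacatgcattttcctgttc
Etv1: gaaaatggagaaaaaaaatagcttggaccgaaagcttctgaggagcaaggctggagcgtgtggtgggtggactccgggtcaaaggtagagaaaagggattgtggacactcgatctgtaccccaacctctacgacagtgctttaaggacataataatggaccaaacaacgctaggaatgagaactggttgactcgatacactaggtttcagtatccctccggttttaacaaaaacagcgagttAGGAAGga
Spry2: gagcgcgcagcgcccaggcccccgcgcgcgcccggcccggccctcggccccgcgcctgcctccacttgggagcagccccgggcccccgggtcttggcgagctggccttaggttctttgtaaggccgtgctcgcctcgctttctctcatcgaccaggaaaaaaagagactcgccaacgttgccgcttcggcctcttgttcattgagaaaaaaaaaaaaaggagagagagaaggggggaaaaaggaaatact
Dusp6: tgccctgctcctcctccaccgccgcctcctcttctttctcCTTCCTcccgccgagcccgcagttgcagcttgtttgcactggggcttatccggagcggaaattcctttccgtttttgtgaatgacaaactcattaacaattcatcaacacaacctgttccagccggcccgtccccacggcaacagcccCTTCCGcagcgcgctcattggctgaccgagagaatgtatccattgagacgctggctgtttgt
Hgf and Dusp6 held 2 matches each, Etv1 held 1 and Spry2 none, and 39.2% of all 32851 promoter windows of this length held at least 1. The AP-1 letters TGANTCA and the CRE letters TGACGTCA, searched on both strands, had no match in these 4 windows and were in 6.75% and 1.55% of all windows. The windows of Met and Etv5 were searched but are not shown. Met held 1 AP-1 match and no ETS or CRE match, and Etv5 held no match of any kind.

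The first question was which cells carried the ligand and whether its level differed with anti-PD-1 treatment. Hgf (chr5:16553495-16620152, plus strand) was counted 212 times in the tumor-like cells of Olaparib + LLY-283 and 977 times in those of Combo. This is 1.94 CPM (95% interval 1.69 to 2.22) and 7.37 CPM (6.92 to 7.85), a log2 ratio of 1.92 (1.71 to 2.15) or 3.79-fold. The intervals of the libraries do not overlap. Summed markers of several other classes were also higher in the tumor-like cells of Combo. Neutrophil markers were at 128 and 204 CPM, macrophage markers at 106 and 159 CPM and DC markers at 46.2 and 82.3 CPM. CAF markers were at 591 and 612 CPM, osteoclast markers at 72.1 and 78.4 CPM and T/NK markers at 2.24 and 2.53 CPM. Endothelial markers were lower, at 8.56 and 7.52 CPM, as were myogenic markers at 17.1 and 16.8 CPM. The part of these markers in the Hgf difference was not tested.

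Among macrophage-like cells Hgf was at 6.47 CPM (3.54 to 10.9) in Olaparib + LLY-283 and 8.55 CPM (6.6 to 10.9) in Combo. Neutrophil-like cells had 7.15 and 6.33 CPM, and CAF-like cells 7.07 and 7.53 CPM. In these 3 classes the intervals of the libraries overlap, so the library difference in Hgf was seen in tumor-like cells and was not detectable elsewhere at this depth.

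The order of the classes differed accordingly. In Olaparib + LLY-283, tumor-like cells came below the neutrophil-, CAF- and macrophage-like cells, whose intervals overlap one another but not that of the tumor-like cells. In Combo, macrophage-, CAF-, tumor- and neutrophil-like cells followed each other with overlapping intervals. The ratio of macrophage-like over tumor-like cells was 3.33 (1.79 to 5.72) in the former library and 1.16 (0.888 to 1.49) in the latter. T/NK-like, endothelial-like and myogenic-like cells had no Hgf UMI in either library, but they were few: 3 counts would be 61.7 and 12.7 CPM in T/NK-like cells, above the Hgf level of any class.

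Free RNA from lysed cells can place transcripts in cells that do not make them, and its part was not tested. Per 1000 UMIs of Krt8 and Krt18, Hgf had 2.1 UMIs in tumor-like and 39.7 in macrophage-like cells of Olaparib + LLY-283, and 8.38 and 85.1 in Combo. Per 1000 macrophage marker UMIs, Hgf had 18.4 and 46.3 UMIs in tumor-like cells and 0.285 and 0.355 in macrophage-like cells.

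Hgf was counted in few cells. An Hgf UMI was found in 1.95% of tumor-like cells in Olaparib + LLY-283 and 20.3% in Combo as counted, a gap that the depth enlarges. With each cell thinned to 5000 UMIs, which left out 1681 and 100 shallower cells, the shares were 1.01% (0.807 to 1.25) and 3.29% (2.64 to 4.05). In Combo the 136 tumor-like cells richest in Hgf, 5% of the class, held 47.8% of its Hgf UMIs, and no cell had more than 14. The thinned share in T/NK-like cells was 0 of 23 and 0 of 43 at 1000 UMIs, too few cells to set a background. At that depth tumor-like cells had 0.203% and 0.752%. Hgf overlaps the predicted genes Gm43489 and Gm42975 on the same strand, which had 13 and 3 UMIs in tumor-like cells of Olaparib + LLY-283 and 95 and 12 in Combo, and UMIs of shared exons could be split among the 3.

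**Figure D1:**
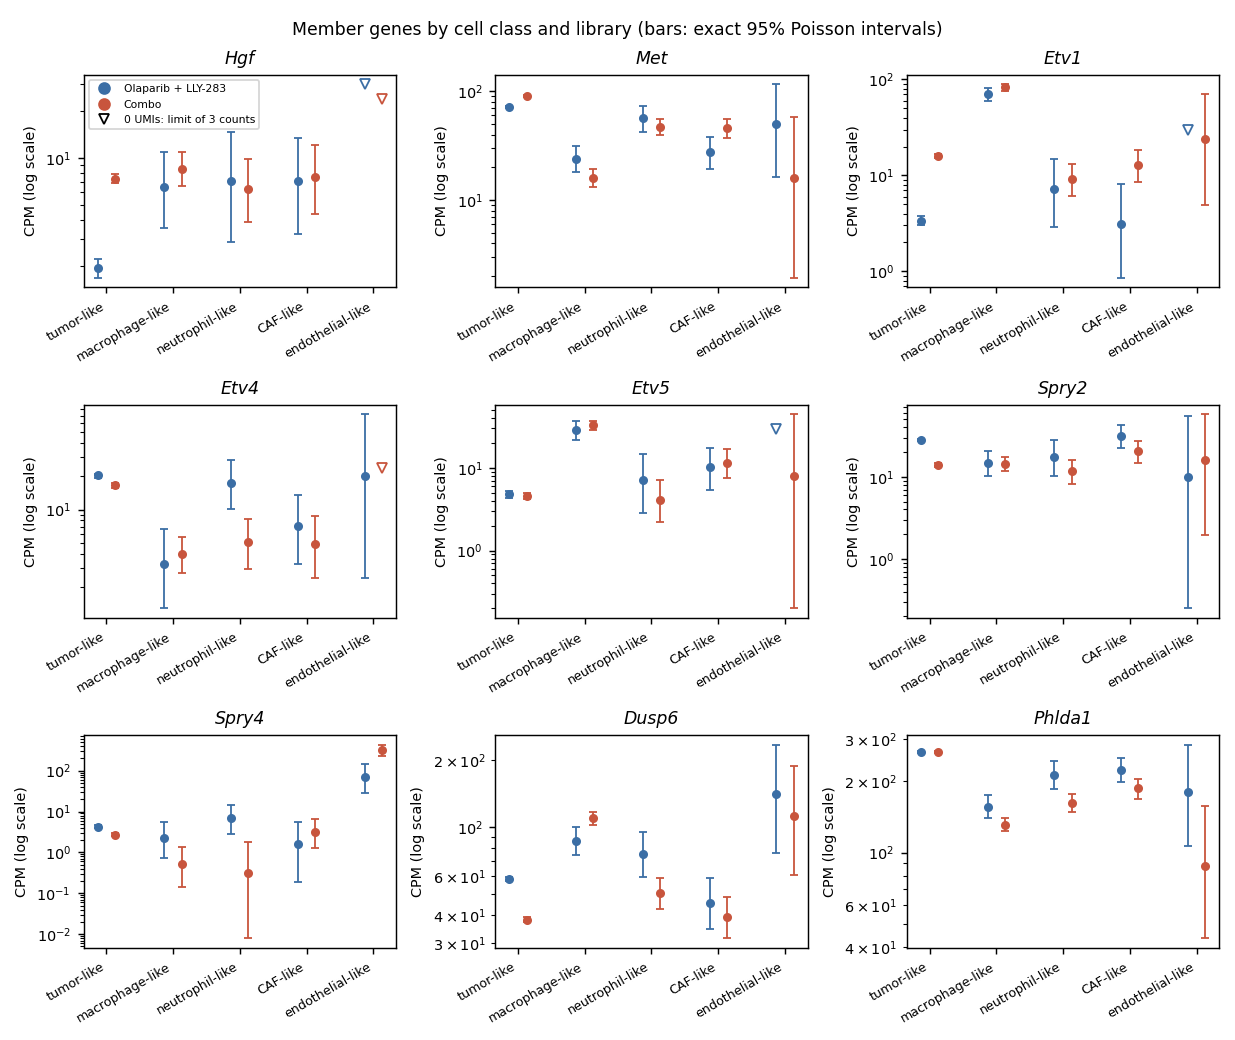
CPM (log axis) of the 9 genes in 5 cell classes of both libraries. Points are UMIs summed over a class, bars are exact 95% Poisson intervals, and open triangles mark 3 counts where a class had 0 UMIs. Hgf in tumor-like cells was at 1.94 CPM in Olaparib + LLY-283 and 7.37 CPM in Combo, and Etv1 was highest in macrophage-like cells of both libraries.

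The receptor differed far less. Met (chr6:17463800-17573980, plus strand) was counted 7884 and 11930 times in tumor-like cells, 72.3 CPM (70.7 to 73.9) in Olaparib + LLY-283 and 90 CPM (88.4 to 91.7) in Combo. The log2 ratio was 0.32 (0.28 to 0.36), above the median of 0.06 over all genes and below the 1.5-fold threshold used here. After thinning to 5000 UMIs, 30.3% and 35.3% of tumor-like cells had a Met UMI.

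Met was highest in tumor-like cells in both libraries. In Combo the next class, neutrophil-like cells, had 46.9 CPM (39.6 to 55.1), and in Olaparib + LLY-283 it had 56.2 CPM (42.3 to 73.2), whose interval reaches that of the tumor-like cells. Macrophage-like cells had 24 and 16 CPM, a ratio to tumor-like cells of 0.333 and 0.178. Per 1000 keratin UMIs, neutrophil-like cells had 169 and 217 Met UMIs against 78.2 and 102 in tumor-like cells.

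Of the transcription factors, Etv1 (chr12:38779380-38870484, plus strand) had the largest library difference of the 9 members. It was counted 367 and 2120 times in tumor-like cells, 3.36 CPM (3.03 to 3.73) in Olaparib + LLY-283 and 16 CPM (15.3 to 16.7) in Combo. The log2 ratio was 2.25 (2.09 to 2.41), or 4.76-fold. The thinned share of tumor-like cells with an Etv1 UMI was 1.7% (1.43 to 2) and 7.04% (6.09 to 8.09).

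Etv1 was nevertheless highest in macrophage-like cells, at 69.8 CPM (59.1 to 81.9) and 82.6 CPM (76.3 to 89.3), 20.8-fold and 5.16-fold above the tumor-like cells. The macrophage-like cells of the libraries had overlapping intervals. Summed macrophage markers moved in the same direction in tumor-like cells, at 106 CPM in Olaparib + LLY-283 and 159 CPM in Combo, which is 0.465% and 0.662% of their level in macrophage-like cells. All 11 markers had UMIs in tumor-like cells. Per 1000 macrophage marker UMIs, Etv1 had 31.9 and 100 UMIs in tumor-like cells against 3.07 and 3.43 in macrophage-like cells. CAF-like cells had 3.14 and 12.8 CPM of Etv1, from 4 and 29 UMIs.

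Etv4 (chr11:101769742-101785371, minus strand) was lower in the tumor-like cells of Combo by less than 1.5-fold, at 20.3 CPM (19.4 to 21.1) against 16.5 CPM (15.8 to 17.2). Its level in macrophage-like cells was 3.24 and 3.95 CPM. Etv5 (chr16:22381309-22439719, minus strand) was at 4.78 CPM (4.37 to 5.2) and 4.59 CPM (4.23 to 4.97) in tumor-like cells, with a log2 ratio of -0.06 (-0.23 to 0.11). Like Etv1, Etv5 was highest in macrophage-like cells, at 28.7 and 32.9 CPM. The 3 related factors thus differed in their library difference, and Etv1 and Etv5, but not Etv4, were highest in macrophage-like cells.

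Among the feedback inhibitors, Spry2 (chr14:105891947-105896819, minus strand), which restrains RAS activation by receptor tyrosine kinases, was lower in tumor-like cells of Combo. It stood at 28.3 CPM (27.3 to 29.3) in Olaparib + LLY-283 and 13.9 CPM (13.3 to 14.6) in Combo, a log2 ratio of -1.02 (-1.11 to -0.94). Thinned shares were 12.6% (11.9 to 13.3) and 7.38% (6.41 to 8.45). In macrophage-like cells Spry2 had 14.8 and 14.5 CPM, with overlapping intervals.

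Spry4 (chr18:38586247-38601415, minus strand), a second Sprouty inhibitor, was at 4.28 CPM (3.9 to 4.69) and 2.74 CPM (2.47 to 3.04) in tumor-like cells, a log2 ratio of -0.64 (-0.85 to -0.44). It was highest in endothelial-like cells, at 69.8 CPM (28.1 to 144) from 7 UMIs in 26 cells and 319 CPM (228 to 434) from 40 UMIs in 9 cells. In Combo no other class reached the endothelial interval. Spry4 in endothelial-like cells was therefore in the opposite direction to that in tumor-like cells, with very few cells behind it.

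Dusp6 (chr10:99263231-99267489, plus strand), a phosphatase that inactivates ERK, was at 58.2 CPM (56.8 to 59.6) in tumor-like cells of Olaparib + LLY-283 and 38.3 CPM (37.2 to 39.3) in Combo, a log2 ratio of -0.60 (-0.66 to -0.55). Thinned shares were 24.6% (23.7 to 25.5) and 16.1% (14.7 to 17.5). In macrophage-like cells the direction was opposite, with 86.5 CPM (74.5 to 99.8) and 110 CPM (102 to 117). The macrophage-like over tumor-like ratio was 1.49 (1.28 to 1.72) and 2.86 (2.66 to 3.08). Neutrophil-like cells had the same direction as tumor-like cells, with 75.6 CPM (59.4 to 94.9) in Olaparib + LLY-283 and 50.4 CPM (42.8 to 58.8) in Combo, a log2 ratio of -0.59 (-0.99 to -0.17).

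Phlda1 (chr10:111506286-111508645, plus strand) was at 264 CPM (261 to 267) and 265 CPM (263 to 268) in tumor-like cells, and the intervals overlap. It was the highest there of all classes, with 222 and 186 CPM in CAF-like cells, the next class, and 156 and 131 CPM in macrophage-like cells. In Olaparib + LLY-283 the intervals of DC-like (121 to 287) and endothelial-like cells (106 to 284) reach that of tumor-like cells. Phlda1 was lower in Combo in macrophage-, neutrophil-, CAF-, DC- and osteoclast-like cells (log2 ratio -0.26, -0.39, -0.26, -0.88 and -2.23), with intervals below 0. In T/NK-, endothelial- and myogenic-like cells its interval included 0. Its share of the summed output genes was large, with 28834 of 41839 UMIs in Olaparib + LLY-283 and 35155 of 47354 in Combo. The sum of the 7 output genes was at 383 CPM (380 to 387) and 357 CPM (354 to 361), a log2 ratio of -0.10 (-0.12 to -0.08). Without Phlda1 it was at 119 and 92.1 CPM, a log2 ratio of -0.37 (-0.41 to -0.34). With classes from clusters, the log2 ratio of the sum was 0.0751, in the other direction. The sum therefore stands for opposite movements of its members, and its direction depends on how tumor-like cells were chosen.

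**Figure D2:**
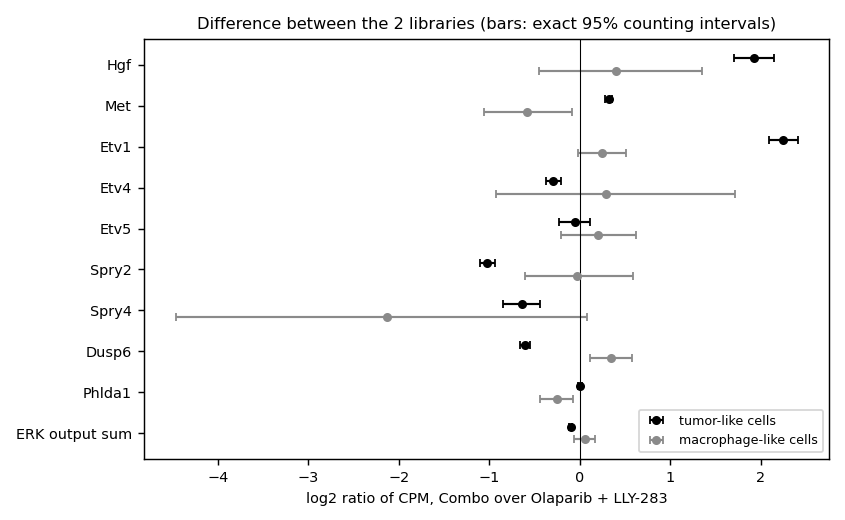
Log2 ratio of CPM, Combo over Olaparib + LLY-283, for each member and for the sum of the 7 output genes, in tumor-like cells (black) and macrophage-like cells (gray), with exact 95% counting intervals from 1 library a group. In tumor-like cells Hgf (1.92) and Etv1 (2.25) lie to the right and Spry2 (-1.02), Spry4 (-0.64) and Dusp6 (-0.60) to the left, while Dusp6 in macrophage-like cells lies to the right.

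Set against all genes, 2 of the 9 members (Hgf and Etv1) were at least 1.5-fold higher in tumor-like cells of Combo, and 3 (Spry2, Spry4 and Dusp6) at least 1.5-fold lower. Of 13644 genes with 100 or more UMIs over both libraries, 4.84% were higher and 2.21% lower by that fold. Spry4 and Dusp6 lie close to that threshold, and each was under 1.5-fold lower in 3 of 9 alternative calculations, down to 1.36-fold and 1.39-fold. Because the members were picked with such differences known, nothing is read from these counts. The members had a median log2 ratio of -0.06, against 0.06 over all genes. Of all genes, 99.8% had a ratio at or below that of Hgf, and 0.469% at or below that of Spry2. Between classes, 3 of 9 members were at least 1.5-fold higher in macrophage-like than tumor-like cells in each library, where 22.6% of 12292 genes in Olaparib + LLY-283 and 25.2% of 13027 in Combo were. Those 3 were Hgf, Etv1 and Etv5 in the former and Etv1, Etv5 and Dusp6 in the latter. At least 1.5-fold lower in macrophage-like cells were 5 members in Olaparib + LLY-283 (Met, Etv4, Spry2, Spry4 and Phlda1), where 33.7% of genes were, and 4 in Combo (Met, Etv4, Spry4 and Phlda1), where 35.3% were.

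**Figure D3:**
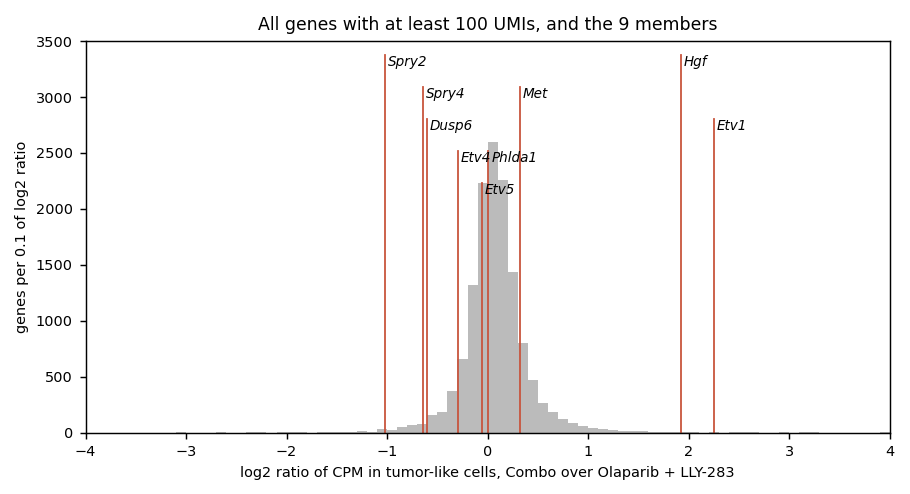
Number of genes (of 13644) per 0.1 of the log2 ratio of CPM in tumor-like cells, Combo over Olaparib + LLY-283, with genes beyond 4 drawn in the end bins and the 9 members as red lines. Hgf (1.92) and Etv1 (2.25) lie in the upper tail and Spry2 (-1.02) in the lower, while Phlda1 and Etv5 lie near the middle.

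The other genes of the pathway were followed as lists, together with mitosis and heat shock genes. Over all 8 lists, 0 of 75 entries with 100 UMIs were at least 1.5-fold higher and 4 (5.33%) at least 1.5-fold lower in tumor-like cells of Combo, against 4.84% and 2.21% of all genes. Of 11 genes that activate or inhibit HGF, 4 had 100 UMIs in tumor-like cells (Plau, Plat, Spint1 and Spint2) and none differed by 1.5-fold. Of 21 genes of MET signaling and turnover, 20 had enough UMIs, none was higher and 1 was lower: Plxnb1, a semaphorin receptor that associates with MET, at 4.35 and 2.86 CPM. None of the 13 genes of the RAS-ERK cascade passed 1.5-fold, and their median log2 ratio was 0.01. None of 7 other receptors upstream of ERK with enough UMIs passed it either. Of 13 further ERK output and feedback genes, none was higher and 2 were lower, both phosphatases of the family of Dusp6: Dusp4 at 22.6 and 15 CPM and Dusp5 at 95 and 59.8 CPM. The median log2 ratio of these 13 was -0.20, against 0.06 over all genes.

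Immediate early genes, which respond to ERK and to tissue dissociation, moved in the same direction as the feedback inhibitors. Their 7 genes had a median log2 ratio of -0.46 and summed to 3640 CPM in Olaparib + LLY-283 and 2860 CPM in Combo, and Fos was past 1.5-fold at 1140 and 753 CPM. Heat shock genes summed to 642 and 542 CPM (median log2 ratio -0.32), and mitosis genes to 1560 and 1520 CPM. Their part in the members' differences was not tested.

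The next question was whether cells with more ligand or receptor also had more ERK output. Pearson's r was taken within each library over tumor-like cells thinned to 5000 UMIs, 8418 in Olaparib + LLY-283 and 2614 in Combo. The cells share a library and the counts are sparse, so these values are descriptions. Hgf against the summed output genes gave r = 0.02 and 0.03. Met against the sum gave 0.03 and 0.05. Such r values are too weak to be a finding in either direction. The same cells were split by a Met UMI, and summed output was higher in cells with one. It was at 411 CPM (400 to 422) against 385 CPM (378 to 392) in Olaparib + LLY-283. In Combo it was at 422 CPM (403 to 441) against 355 CPM (343 to 368). The shares of cells with an output UMI had overlapping intervals in both libraries.

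By r, the output genes were also weakly related to one another. Over their 21 pairs, r averaged 0.01 (range -0.02 to 0.13) in Olaparib + LLY-283 and 0.03 (range -0.01 to 0.13) in Combo, with 12 and 15 pairs above 0. The highest were Spry2 with Phlda1 (0.13 and 0.12) and Dusp6 with Phlda1 (0.07 and 0.13). Against the sum of the other 6, Phlda1 (0.12 and 0.16), Spry2 (0.11 and 0.11) and Dusp6 (0.06 and 0.13) had the largest values, while Etv4 (0.01 and 0.00) and Etv5 (-0.01 and 0.00) had values near 0. Hgf was most correlated with Etv1 among the members in Combo (0.09), and this pair had 0.02 in Olaparib + LLY-283.

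**Figure D4:**
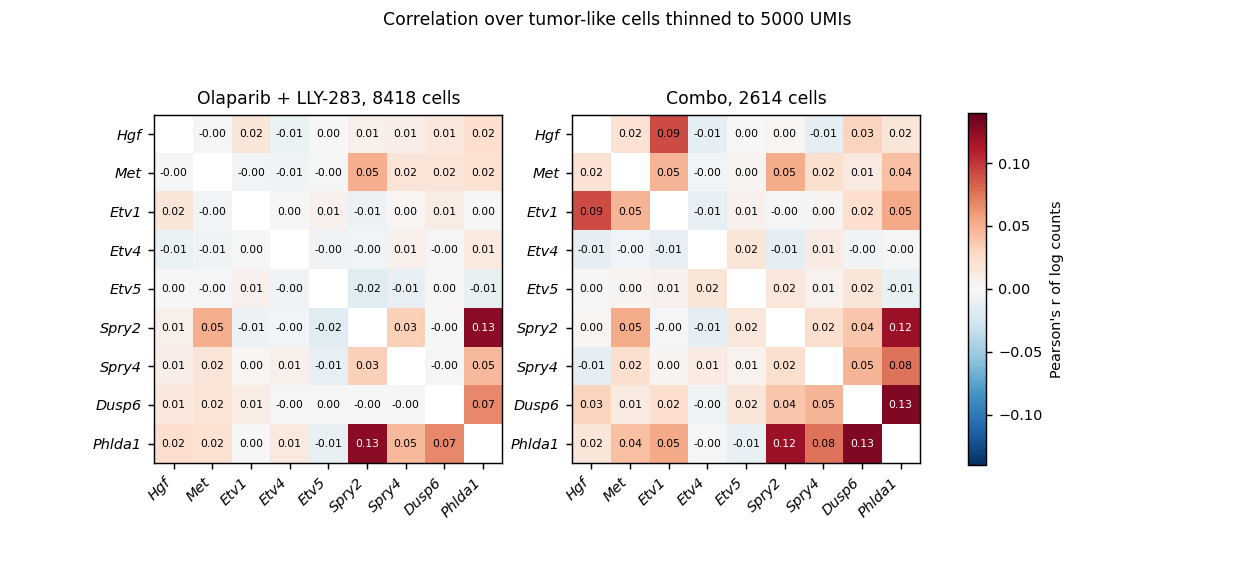
Pearson's r of log counts between members over tumor-like cells thinned to 5000 UMIs, in Olaparib + LLY-283 (8418 cells, left) and Combo (2614 cells, right), with red above 0 and blue below. The darkest squares are Spry2 with Phlda1 in both libraries and Dusp6 with Phlda1 in Combo, at 0.12 to 0.13, and most others are near 0.

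The thinned tumor-like cells were also split by whether they had an Hgf UMI. In Combo, 86 tumor-like cells had an Hgf UMI, and Etv1 was at 51.2 CPM (32.1 to 77.5) in them and 15.2 CPM (13.1 to 17.5) in the other 2528. Dusp6 was at 69.8 CPM (47.1 to 99.6) against 38.1 CPM (34.8 to 41.7). Both CPM intervals lie apart from those of the cells without Hgf. By the share of cells with a UMI, Etv1 also lay apart, at 19.8% (12 to 29.8) against 6.61% (5.67 to 7.65). The shares for Dusp6 overlapped, at 22.1% (13.9 to 32.3) against 15.9% (14.5 to 17.3). Macrophage markers were at 160 CPM with and 163 CPM without an Hgf UMI. Immediate early genes were higher with an Hgf UMI, at 3380 CPM (3210 to 3560) against 2850 CPM (2820 to 2880), and their part was not tested.

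In Olaparib + LLY-283, 85 cells had an Hgf UMI. Etv1 was at 9.41 CPM (2.56 to 24.1, 4 UMIs) in them and 3.46 CPM (2.91 to 4.07) in the rest, and Dusp6 was at 84.7 CPM (59.3 to 117) against 60.2 CPM (57.9 to 62.6), with overlapping intervals for both. Immediate early genes were again higher, at 4220 CPM (4030 to 4420) against 3710 CPM (3690 to 3730). Phlda1 was at 393 CPM (336 to 457) against 269 CPM (264 to 274) there, but at 256 CPM (210 to 308) against 284 CPM (275 to 293) in Combo. The shares of cells with a Phlda1 UMI overlapped in Olaparib + LLY-283, at 72.9% (62.2 to 82) against 62.7% (61.7 to 63.7). Mitosis genes were lower in Hgf-positive cells of Combo, at 970 CPM (879 to 1070) against 1270 CPM (1250 to 1290). Met, Etv4, Etv5, Spry2 and Spry4 had overlapping intervals in both libraries. Summed output was at 544 CPM (476 to 618) with and 391 CPM (385 to 397) without an Hgf UMI in Olaparib + LLY-283. In Combo it was at 407 CPM (349 to 472) and 378 CPM (367 to 389), with overlapping intervals. The shares of cells with an output UMI overlapped in Olaparib + LLY-283 too, at 84.7% (75.3 to 91.6) and 76.8% (75.9 to 77.7). The sum without Phlda1 overlapped in Olaparib + LLY-283, at 151 CPM (116 to 192) and 123 CPM (119 to 126). In Combo it lay apart, at 151 CPM (117 to 193) and 94 CPM (88.7 to 99.5).

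**Figure D5:**
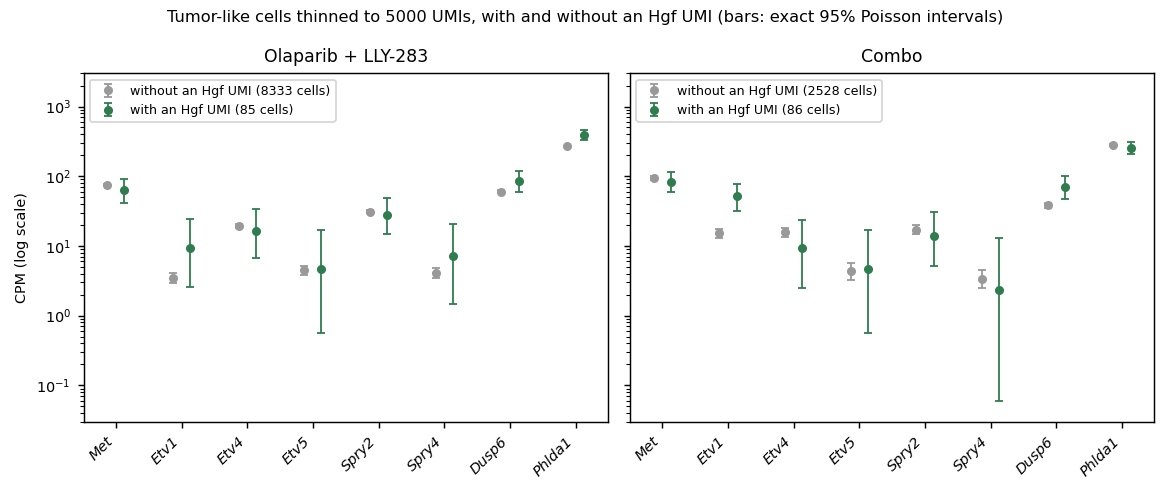
CPM (log axis) of the other 8 members in tumor-like cells thinned to 5000 UMIs, with (green) and without (gray) an Hgf UMI, in each library; bars are exact 95% Poisson intervals. In Combo, Etv1 (51.2 against 15.2 CPM) and Dusp6 (69.8 against 38.1 CPM) lie apart, and in Olaparib + LLY-283 Phlda1 does (393 against 269 CPM). The shares of cells with a UMI, not drawn, overlapped for Dusp6 in Combo and for Phlda1 in Olaparib + LLY-283.

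The genes most like Hgf over tumor-like cells were Dcn, a matrix proteoglycan that also stands in the fibroblast marker list (mean r = 0.07), Slpi, a secreted protease inhibitor (0.06), Spp1, a secreted matrix protein (0.06), Actg1, a cytoplasmic actin (0.06), and Gbp2b, an interferon-induced GTPase (0.06). The comparison took in 7347 genes that were counted in 5% or more of these cells in both libraries, whose median r was 0.00 and whose 95th percentile was 0.02. The genes most like the summed output were Ptgs2, the inducible cyclooxygenase (0.32), Ier3, an immediate early gene (0.30), Areg, an EGF receptor ligand (0.29), Klf6, an early response transcription factor (0.29), and Dusp5, an ERK phosphatase (0.26). These were stronger, with 0.06 as the 95th percentile. The sum itself lay close to Phlda1, which had r = 0.86 with it in Olaparib + LLY-283 and 0.90 in Combo. For the other output genes, r with the sum ran from 0.08 (Etv5) to 0.39 (Dusp6) in Olaparib + LLY-283. In Combo it ran from 0.09 (Etv5) to 0.37 (Dusp6). The likeness to the sum is therefore largely likeness to Phlda1, and no values for a sum without Phlda1 are given.

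The summed output also followed the immediate early genes (r = 0.18 in Olaparib + LLY-283 and 0.36 in Combo) and the heat shock genes (0.18 and 0.31). It was inversely related to the mitosis genes (-0.13 and -0.11). These values, too, belong to a sum that lies close to Phlda1. Hgf had 0.02 and 0.01 with the immediate early genes, and Met 0.00 and 0.02. In each library the sum had a larger r with the early response and heat shock genes than with Hgf or Met. These sizes cannot be compared, because sparse counts lower r. Hgf was counted in 1.01% and 3.29% of these cells and Met in 30.3% and 35.3%, while the lists are sums of more abundant genes. No conclusion is drawn from the order.

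Tumor-like cells with an Il24 UMI, which were 219 in Olaparib + LLY-283 and 638 in Combo, had 3.14 and 10.8 CPM of Hgf and 4.57 and 28.3 CPM of Etv1. In cells without one, Hgf was at 1.9 and 5.98 CPM (3.14-fold) and Etv1 at 3.32 and 11 CPM (3.3-fold), so the library difference was also seen outside the Il24-positive cells.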

How the data were processed

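The data were 2 droplet single-cell libraries of EMT6 tumors, 1 per group, each of 3 pooled tumors. The deposited files hold UMI counts per gene and cell, made by the authors with Cell Ranger, with no normalization. The study's methods and the file headers name different versions, and the headers give 6.1.2. Later versions count intronic reads by default, and which setting was used is not given in the sources used here, which bears on the UMIs of long genes such as Hgf, Met and Etv1. The genome build was mm10, and all 55450 gene identifiers were found in GENCODE M21, from which gene positions were taken.

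Cells under 200 genes or with 20% or more of mitochondrial UMIs were left out. Scrublet's automatic threshold called no doublet, so the cells with the highest scores were removed, 0.8% per 1000 cells (2055 and 284 cells). A cell was put in a class at 3 or more UMIs and 2 or more genes of that class's markers, above a threshold of 5 to 50 marker UMIs per 10000 UMIs, depending on the class. A tumor-like cell had at least 2000 UMIs and 1 tumor marker UMI, and passed the threshold of no other class. Cells past the thresholds of another class and of the tumor markers were left out. A cell past the thresholds of 2 other classes was left out unless 1 dominated. Dominance meant a marker level, relative to its threshold, at least 2 times that of the next class. These thresholds were set after the data were seen, and the members and gene lists were chosen with earlier results of these data known.

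For CPM, a gene's UMIs over all cells of a class were divided by the class's total and multiplied by 1e6. Intervals are exact 95% (Poisson, Clopper-Pearson, and conditional binomial for ratios). PCR duplicates were removed by UMI, and the intervals cover counting error only. With 1 library a group no test was made, and a 1.5-fold ratio was the threshold over genes with 100 UMIs in both libraries together. For shares and correlations, cells were thinned to 1000 or 5000 UMIs (5 draws for correlations). All 9 members, the 5 genes most correlated with Hgf and with the output sum, and listed pathway genes past 1.5-fold were named. The calculations were tested on simulated data. Clusters were found by the Leiden method at resolution 1.3, without the members. Scanpy 1.11.5, leidenalg 0.10.2, igraph 0.11.9, scipy 1.17.1, pandas 2.3.3, numpy 2.4.6 and matplotlib 3.10.9 were used under Python 3.11.15.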

Additional observations from a re-analysis of the deposited data

How the results depend on the processing

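The median depth of a tumor-like cell was 8964 UMIs in Olaparib + LLY-283 and 47069 in Combo, and 1 library a group leaves treatment and library not to be told apart. Hgf kept its direction under 9 alternatives (log2 ratio 1.65 to 2.22), with 2.22 for classes from clusters and, in cells without an Il24 UMI, 1.65. Met kept its direction (0.22 to 0.37), with 0.37 from clusters, 0.24 for the thinned share and 0.22 without Il24-positive cells. The output sum went from -0.10 to 0.0751 with classes from clusters, and to -0.16 for the thinned share, -0.15 without Il24-positive cells, -0.0778 with cells thinned before summing and -0.37 without Phlda1. Phlda1 changed direction without mitochondrial and ribosomal genes (-0.0076), for the thinned share (-0.13) and without Il24-positive cells (-0.0252). The alternatives without Il24-positive cells, with at least 3 tumor marker UMIs, with cells thinned before summing and without Phlda1 were chosen after seeing the data. The clusters named tumor held 1602 cells in Combo, 1546 of them among the 2714 tumor-like cells, and 7918 in Olaparib + LLY-283, 7286 of them among the 10099. Etv1, Spry2, Spry4, Dusp6, Etv4 and Etv5 kept their direction under all 9. Dusp6 was under 1.5-fold with classes from clusters (-0.47), for the thinned share (-0.57) and with at least 3 tumor marker UMIs (-0.57), and Spry4 with cells thinned before summing (-0.44), for the thinned share (-0.47) and with cells weighted equally (-0.56). Hgf in macrophage-like over tumor-like cells as a mean stayed within its interval under all 4 alternatives (log2 ratio as the mean of the libraries, 0.70 to 1.23). With classes from clusters it went from 0.21 to -0.17 in Combo and from 1.74 to 1.57 in Olaparib + LLY-283. With all UMIs used, the mean r of the libraries was 0.0882 for Hgf with the output sum (0.0270 in Olaparib + LLY-283 and 0.1494 in Combo), 0.0923 for Met (0.0280 and 0.1566) and 0.0476 among the output genes (0.0193 and 0.0760), and at 10000 UMIs it was 0.054 for Hgf (0.0261 and 0.0819). The cause of these changes was not tested. No paired analysis was possible because each group is 1 library.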

Other observations

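No test of an explanation was made. Among the classes with fewer cells, osteoclast-like cells (60 and 22) had 51.9 and 42.5 CPM of Met, DC-like cells (60 and 44) had 8.31 CPM from 1 UMI and 42.5 CPM from 18, and T/NK-like cells (42 and 44) had 0 and 5 Met UMIs. Osteoclast-like cells had 1 and 9 Etv1 UMIs, at 4 and 21.3 CPM. Phlda1 was at 99.9 and 21.3 CPM in osteoclast-like cells, from 25 and 9 UMIs, and Dusp6 was at 140 CPM (76.3 to 234) and 112 CPM (61 to 187) in endothelial-like cells, which carried the highest level of both feedback inhibitors Spry4 and Dusp6 in both libraries. The intervals of Dusp6 in endothelial-like and macrophage-like cells overlap.

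Tumor-like cells of Combo with an Etv1 UMI after thinning (184 cells) had 20.7 CPM of Hgf (12.4 to 32.3) against 5.93 CPM (4.64 to 7.46) in the other 2430. Met was at 120 CPM (98.3 to 144) against 92.5 CPM (87.2 to 98.1), so its intervals barely lie apart. The shares of cells with a Met UMI overlapped, at 43.5% (36.2 to 51) against 34.7% (32.8 to 36.6). In Olaparib + LLY-283 the 143 cells with an Etv1 UMI had 5.59 CPM of Hgf (1.52 to 14.3) against 2.03 CPM (1.62 to 2.51), and 78.3 CPM of Met (59.2 to 102) against 74.3 CPM (71.7 to 76.9), with overlapping intervals for both. Hgf did not differ beyond its interval between tumor-like cells with and without a Met UMI, at 6.93 CPM (4.74 to 9.79) and 6.98 CPM (5.31 to 9) in Combo and 2.12 CPM (1.4 to 3.08) and 2.08 CPM (1.59 to 2.67) in Olaparib + LLY-283.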
